A study of Homo sapiens with 6 samples.

Results

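The BCL2 family decides whether the outer membrane of the mitochondrion stays closed, and its transcripts were followed in A549 lung adenocarcinoma cells with and without the RNA helicase DDX17. The members were 10 named genes of the 29476 in the count table. They comprised 4 pro-survival members (BCL2, BCL2L1, BCL2L2 and MCL1), 2 effectors (BAX and BAK1) and 4 BH3-only members (BCL2L11, BID, BAD and PMAIP1). They were chosen by name and known function, although earlier results of these data were known. All 10 passed the filter on low counts, which left 15615 genes for testing.

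Polyadenylated RNA was sequenced from A549, an established human lung adenocarcinoma line grown in MEM with serum. The control group, siCtrl, held 3 libraries of cells transfected with a nontargeting siRNA. The knockdown group, siDDX17, held 3 libraries of cells transfected with 1 siRNA against DDX17. Lipofectamine carried the siRNA in both groups, and the harvest time is given only for the RT-qPCR. The sample titles name siRNAs, as the methods do, while another label calls the controls "control plasmid". The study compared both groups to find genes regulated by DDX17, a DEAD-box helicase that takes part in transcription and splicing.

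In the mitochondrial pathway of apoptosis, BAX and BAK1 are the effectors that open the outer membrane and release cytochrome c. Pro-survival members hold the effectors in check, and BH3-only members bind the pro-survival members or the effectors through a short helix, the BH3 motif. The binding is selective: PMAIP1 (NOXA) binds mainly MCL1, BAD binds BCL2, BCL2L1 and BCL2L2, and BCL2L11 (BIM) and cleaved BID bind all of them. All 10 genes code for a BH3 motif, so its coding sequence is shown for each as the feature that unites them. The motif was found as leucine, or methionine in BCL2L2, followed after 3 residues by glycine, or serine in BAD, and then aspartate. Capitals mark the codons of these residues. Each stretch lies in 1 coding exon of the canonical transcript of GENCODE release 44 on GRCh38.
MCL1, residue 213 of 350, chr1:150578865-150578903, minus strand: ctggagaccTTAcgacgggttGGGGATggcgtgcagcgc
BCL2L1, residue 90 of 233, chr20:31721922-31721960, minus strand: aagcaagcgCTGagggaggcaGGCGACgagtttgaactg
BCL2L2, residue 46 of 193, chr14:23307894-23307932, plus strand: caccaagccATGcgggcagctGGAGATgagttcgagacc
BCL2, residue 97 of 239, chr18:63318349-63318387, minus strand: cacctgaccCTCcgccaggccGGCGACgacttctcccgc
BAX, residue 63 of 192, chr19:48955778-48955816, plus strand: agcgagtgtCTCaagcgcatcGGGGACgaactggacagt
BAK1, residue 78 of 211, chr6:33575387-33575425, minus strand: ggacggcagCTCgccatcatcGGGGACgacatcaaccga
BCL2L11, residue 152 of 198, chr2:111150094-111150132, plus strand: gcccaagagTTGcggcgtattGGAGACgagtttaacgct
BID, residue 90 of 195, chr22:17739415-17739453, minus strand: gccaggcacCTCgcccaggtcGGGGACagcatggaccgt
BAD, residue 114 of 168, chr11:64271622-64271660, minus strand: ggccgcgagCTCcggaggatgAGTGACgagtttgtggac
PMAIP1, residue 29 of 54, chr18:59902664-59902702, plus strand: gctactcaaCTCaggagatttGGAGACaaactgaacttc
The 3 marked residues are the same in 8 of the 10 members, while the codons differ between the genes. A second match in BID, at residue 25, has serine in place of glycine and is not its known BH3 motif.

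The libraries held between 30658136 and 39182371 counted reads. In CPM, the reads of a gene scaled to the size of the library with TMM factors, DDX17 was at 177, 184 and 206 in the control libraries and at 32.1, 30.8 and 30.4 after knockdown. Its log2 fold change was -2.60 (SE 0.0685, edgeR quasi-likelihood adjusted p = 5.89e-11). The first siCtrl library stood apart. The relative spread of a gene among replicate libraries (edgeR's common BCV) was 0.0754 with all libraries and 0.0472 without siCtrl 1, but 0.0685 to 0.0850 without any other library. Results that rest on siCtrl 1 are therefore given with and without it. Of 8 epithelial and A549 marker genes, all were tested, and their summed level was 15584 to 17154 CPM in siCtrl and 13635 to 14245 CPM in siDDX17. By an adjusted p under 0.05 in the edgeR quasi-likelihood test, 4 of these 8 were lower in siDDX17 and 1 was higher. The shares over all tested genes were 24.3% lower and 24.5% higher. Of 8 markers of other cells, 6 were measured and 1 of them passed the filter (CD68), and the sum of the 6 was 1.22 to 1.83 CPM in siCtrl and 1.58 to 2.52 CPM in siDDX17. The other markers, CD3E and HBB, and CDKN2A, a gene that A549 is known to lack, were not analysed here. The part of these marker changes in the results was not tested. In bulk RNA, fewer cells of a kind and less RNA per cell cannot be told apart.

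The levels of the members were compared first, in FPKM, which corrects for transcript length. BAX had the highest level in both groups, and BCL2 had the lowest. In siCtrl, BAX was at 153 ± 1.91 FPKM (SD, n = 3), MCL1 at 60.9 ± 3.46, BCL2L1 at 55.7 ± 0.248 and BAD at 48.9 ± 0.827. BAK1 followed at 18.1 ± 1.56 FPKM and BID at 16.4 ± 0.610. PMAIP1 was at 5.10 ± 2.53 FPKM and BCL2L2 at 4.82 ± 1.05, and the ranges of these neighbours overlapped. BCL2L11 was at 1.30 ± 0.101 FPKM and BCL2 at 0.023 ± 0.015. The ranges of all other neighbours in this order were apart in siCtrl, although those of MCL1 and BCL2L1 were close, with 58.48 FPKM as the lowest MCL1 value and 55.88 as the highest BCL2L1 value.

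The order changed in siDDX17. MCL1 moved from the second to the fourth place, at 26.0 ± 1.07 FPKM, behind BAX at 146 ± 3.02, BCL2L1 at 68.3 ± 1.03 and BAD at 42.1 ± 1.44. BID, at 18.1 ± 0.410 FPKM, stood above BAK1, at 12.7 ± 0.626. At the low end, BCL2L2 was at 3.11 ± 0.279 FPKM, PMAIP1 at 2.45 ± 0.0839 and BCL2L11 at 2.19 ± 0.154. No neighbouring ranges overlapped in this group. BCL2 was at 0.040 ± 0.010 FPKM.

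**Figure D1:**
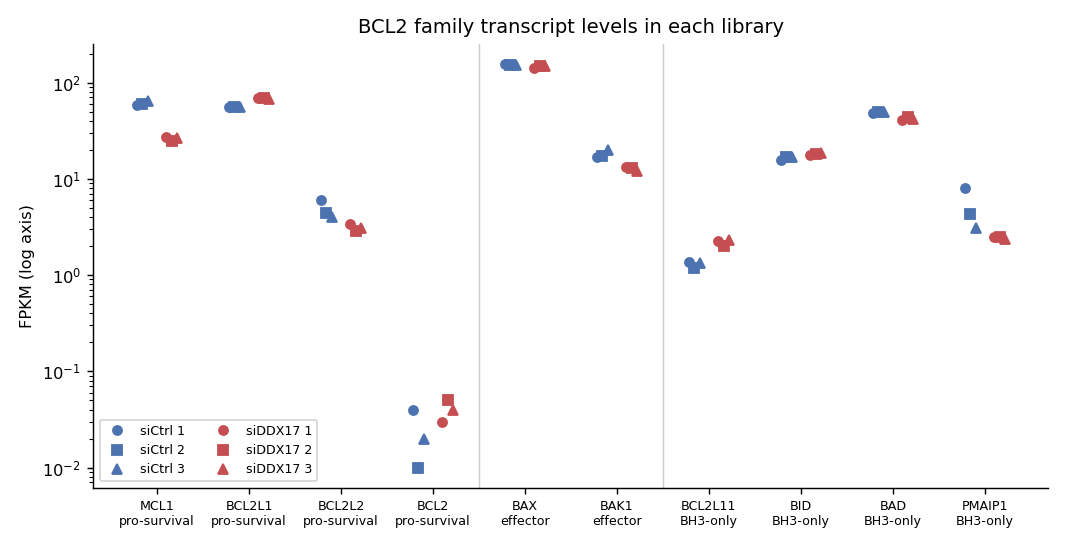
Level of each member in every library, in FPKM on a log axis, with the pro-survival, effector and BH3-only members separated by vertical lines and 1 symbol per library. MCL1, BCL2L2, BAK1, BAD and PMAIP1 sit lower in siDDX17, BCL2L1 and BCL2L11 sit higher, BAX and BID differ by less, and BCL2 lies near the bottom of the axis in both groups.

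The level of 8 of the 10 members differed between siDDX17 and siCtrl. With 1 siRNA against DDX17, an effect of its loss cannot be told apart from an effect of either siRNA sequence. MCL1, BCL2L2, BAX, BAK1, BAD and PMAIP1 were downregulated, BCL2L1 and BCL2L11 were upregulated, and BCL2 and BID did not pass the test (adjusted p under 0.05 in the edgeR quasi-likelihood test, adjusted over all 15615 genes). Over all tested genes, 24.3% were called lower and 24.5% higher by this rule. With the added limit of an absolute log2 fold change over 1, MCL1 and PMAIP1 stayed called lower and 0 members were called higher, against 2.92% and 4.65% of all genes. With the limits of the study's methods (p under 0.01 and a fold change of 1.5), 4 members were lower and 1 was higher, against 8.03% and 11% of all genes. In CPM, every siDDX17 library lay below every siCtrl library for 6 members and above for 2, against 27.7% and 28.8% of all genes. The median log2 fold change was -0.27 over the members and 0.0051 over all tested genes. By subclass it was -0.30 for the pro-survival members, -0.42 for the effectors and -0.16 for the BH3-only members. The pro-survival median lay between BCL2L2 (-0.76) and BCL2L1 (0.17). It also counted BCL2 (0.62), which had only 3 to 14 counts per library.

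**Figure D2:**
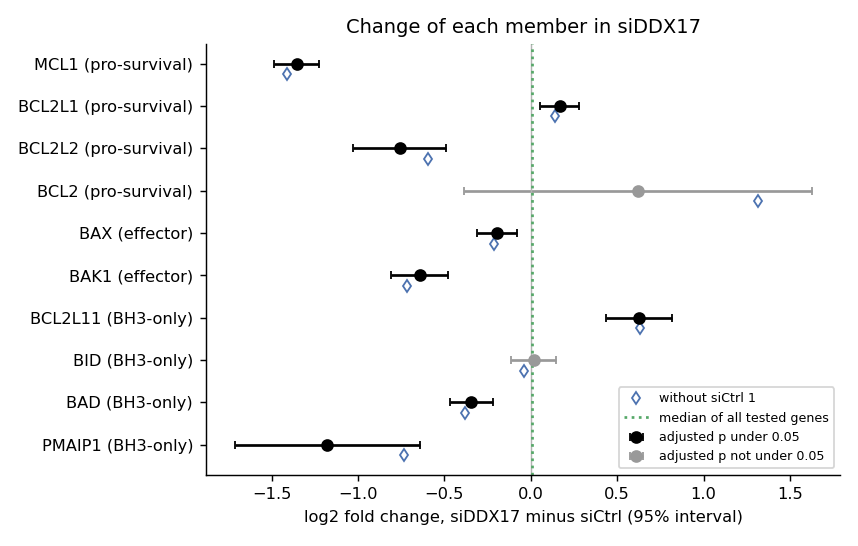
Log2 fold change of each member, siDDX17 minus siCtrl, with its 95% interval (circles) and the value without the siCtrl 1 library (diamonds). MCL1 has the lowest value, the interval of BCL2 is the widest, and leaving out siCtrl 1 moves PMAIP1 from -1.18 to -0.73 and BCL2 from 0.62 to 1.32.

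Among the pro-survival members, MCL1 had the largest change. MCL1 is a short-lived protein that restrains BAK1 and is needed by many lung cancer lines. The control libraries held 255, 271 and 289 CPM of it, and the knockdown libraries 109.9, 103 and 106 CPM. All siDDX17 libraries were thus far below the lowest siCtrl library. MCL1 fell by 60.9%, with a log2 fold change of -1.36 (SE 0.0615, 95% interval -1.49 to -1.22, adjusted p = 3.01e-09). Over all alternatives its log2 fold change stayed between -1.41 and -1.19.

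BCL2L1 (BCL-XL), the pro-survival protein that guards against both effectors, moved the other way and by little. It was at 170.3, 177 and 174 CPM in siCtrl and 195, 200.4 and 189.9 CPM in siDDX17, without overlap. The log2 fold change was 0.17 (SE 0.0530, 95% interval 0.052 to 0.28, adjusted p = 0.0191), a rise of 12.2%. The call was lost without siDDX17 1 (0.17, adjusted p = 0.0663) and without siDDX17 2 (0.15, adjusted p = 0.0714).

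BCL2L2 (BCL-w) is a pro-survival protein close to BCL2L1 in sequence. It was at 23.2, 17.8 and 15.8 CPM in siCtrl and at 12.3, 10.4 and 10.9 CPM in siDDX17. The groups did not overlap, and siCtrl 1 was the highest library. BCL2L2 fell by 40.9%, with a log2 fold change of -0.76 (SE 0.125, adjusted p = 0.000232), and without siCtrl 1 the value was -0.59 (adjusted p = 6.86e-07). BCL2L2 shares 4919 bases on the same strand with the read-through gene BCL2L2-PABPN1, which had 2498 to 3610 counts. The read-through gene was at 73.8, 112 and 96.3 CPM in siCtrl and 88.0, 91.8 and 87.9 CPM in siDDX17. It was thus lowest in siCtrl 1, where BCL2L2 was highest. How reads were shared between these genes was not tested.

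BCL2, the founding member of the family, had 12, 3 and 5 counts in siCtrl and 10, 14 and 11 in siDDX17. The groups overlapped, and both lay near the limit of detection. The log2 fold change was 0.62 with an interval from -0.39 to 1.63 (adjusted p = 0.294), so a change in either direction was not detectable at this depth. Without siCtrl 1, the control library with the most reads of BCL2, it was 1.32 (adjusted p = 0.0596).

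Both effectors were downregulated, by different amounts. BAK1, which sits in the mitochondrial outer membrane, was at 40.0, 43.1 and 47.9 CPM in siCtrl and 29.1, 28.7 and 26.2 CPM in siDDX17. The groups were apart, and the log2 fold change was -0.64 (SE 0.0767, adjusted p = 1.49e-05). BAX, which moves from the cytosol to the membrane when activated, was at 234, 241 and 233 CPM in siCtrl and 202, 213 and 205 CPM in siDDX17. It also showed no overlap, but the log2 fold change was -0.19 (SE 0.0529, adjusted p = 0.0079). The BAX call rested on the scaling: with library size only, which shifts the median of all genes by 0.12, it was -0.07 (adjusted p = 0.228). The FPKM ratio of BAK1 to BAX was 0.109, 0.114 and 0.131 in the controls, and 0.0923, 0.0861 and 0.0813 after knockdown.

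The BH3-only members did not move together. BCL2L11 (BIM), a strong activator that binds every pro-survival member, was at 8.86, 8.01 and 8.94 CPM in siCtrl and at 13.7, 12.4 and 13.8 CPM in siDDX17. The siDDX17 libraries were all higher. It rose by a log2 fold change of 0.63 (SE 0.0891, adjusted p = 7.02e-05), or 54.3%. BAD, which is held inactive by 14-3-3 proteins once phosphorylated, was at 68.0, 73.1 and 71.5 CPM in siCtrl and 54.1, 58.6 and 54.8 CPM in siDDX17. BAD fell by 21.2%, without overlap, with a log2 fold change of -0.34 (SE 0.0584, adjusted p = 0.000299).

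BID, which caspase-8 cleaves to link death receptors to the mitochondrion, was at 47.0, 52.3 and 51.3 CPM in siCtrl and 49.4, 51.8 and 51.1 CPM in siDDX17. These ranges overlapped, and the log2 fold change was 0.02 (95% interval -0.11 to 0.15, adjusted p = 0.84). In FPKM, which were not TMM scaled, BID was at 15.7 to 16.7 in siCtrl and 17.6 to 18.4 in siDDX17, without overlap. The sign of the log2 fold change was positive under every scaling and unit, and negative without siCtrl 1 (-0.039, adjusted p = 0.579).

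PMAIP1 (NOXA), the partner of MCL1 and a target of ATF4, varied widely between control libraries. It had 603, 288 and 264 counts in siCtrl, or 17.8, 10.1 and 7.05 CPM, and 202, 193 and 188 counts in siDDX17, or 5.24, 5.29 and 4.88 CPM. The groups did not overlap, but siCtrl 1 was well above the other controls. PMAIP1 fell by 55.8%, with a log2 fold change of -1.18 (SE 0.249, adjusted p = 0.00153). Without siCtrl 1 it was -0.73 (adjusted p = 6.52e-06). MCL1 then remained as the 1 member both called and past the 2-fold limit.

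The stress-response genes upstream of PMAIP1 also had their highest level in siCtrl 1. DDIT3 (CHOP), a transcription factor of the unfolded protein response, was at 123.5, 44.7 and 6.70 CPM in siCtrl and 16.6, 15.6 and 13.5 CPM in siDDX17. The groups overlapped, since the third control library was below all siDDX17 libraries. The log2 fold change was -1.93 (SE 0.619, adjusted p = 0.0194), and -0.72 without siCtrl 1 (adjusted p = 0.0292). ATF4, the factor that induces DDIT3, was at 608, 485 and 379 CPM in siCtrl and 377, 375 and 363 CPM in siDDX17 (log2 fold change -0.40, adjusted p = 0.0139). Without siCtrl 1 the ATF4 value was -0.23 (adjusted p = 0.0012). BBC3 (PUMA), another BH3-only gene, was at 12.3, 10.6 and 7.07 CPM in siCtrl and 11.8, 15.4 and 14.0 CPM in siDDX17. Unlike PMAIP1 it was called higher, at 0.46 (adjusted p = 0.0292), although the groups overlapped. Without siCtrl 1 the BBC3 value was 0.65 (adjusted p = 1.38e-05). The part of ATF4 and DDIT3 in the PMAIP1 difference was not tested.

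**Figure D3:**
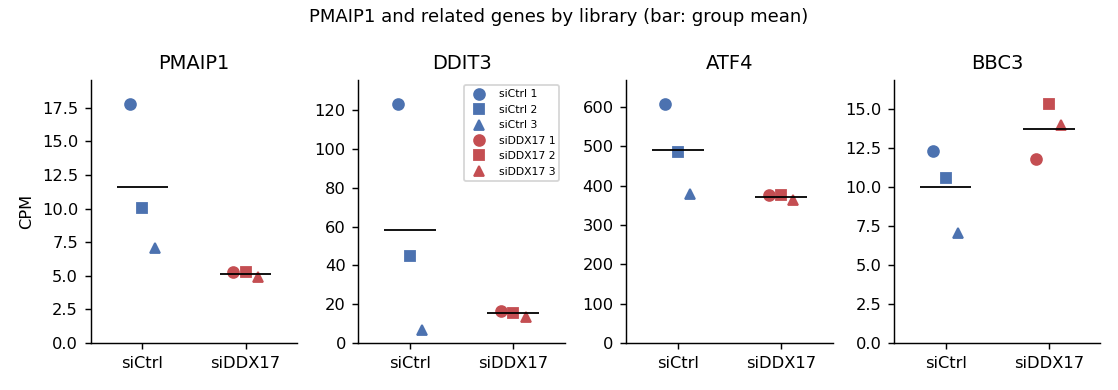
CPM of PMAIP1, DDIT3, ATF4 and BBC3 in each library, on axes that start at 0, with a bar at each group mean. The siCtrl 1 library is the highest control for all 4 genes, and the siDDX17 libraries of PMAIP1 lie between 4.88 and 5.29 CPM.

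The balance of the subclasses was expressed as the ratio of their summed FPKM in each library, and is given without a test. These FPKM were not TMM scaled. In them the median log2 fold change of all tested genes was 0.12 (limma on log2(FPKM + 0.1)), against 0.0051 in the main fit. This shift makes falls of a sum smaller and rises larger, and cancels in a ratio within a library. The pro-survival sum was 120, 119 and 125 FPKM in siCtrl and 98.7, 97.1 and 96.7 FPKM in siDDX17, and its mean fell by 19.7%. The effector sum fell by 7.17%, from 171 ± 0.962 to 159 ± 2.74 FPKM. The BH3-only sum fell by 9.47%, from 71.6 ± 1.16 to 64.8 ± 1.60 FPKM. Without BAD it was 22.8 ± 1.96 FPKM in siCtrl and 22.7 ± 0.330 in siDDX17, with overlap. All 3 sums were lower in every siDDX17 library than in any siCtrl library.

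Pro-survival over effector FPKM was 0.698, 0.700 and 0.728 in siCtrl and 0.632, 0.600 and 0.607 in siDDX17, a difference of -0.21 in the log2 ratio. Pro-survival over BH3-only FPKM was 1.65, 1.67 and 1.77 in siCtrl and 1.56, 1.46 and 1.49 in siDDX17, a difference of -0.17. BH3-only over effector FPKM was 0.423, 0.419 and 0.412 in siCtrl and 0.404, 0.411 and 0.408 in siDDX17, a difference of -0.036. None of these ratios overlapped between the groups. The pro-survival part of the balance thus shifted down against both other subclasses.

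MCL1 carried that shift. Without it, the pro-survival sum was 60.5 ± 1.11 FPKM in siCtrl and 71.5 ± 0.976 in siDDX17, a rise of 18.1% without TMM scaling. BCL2L1, the largest part of this sum, rose by 12.2% with TMM scaling. Without MCL1, both pro-survival ratios turned to higher in siDDX17 (0.35 over effectors and 0.38 over BH3-only members, in log2). The difference between BH3-only members and effectors turned in sign, to 0.22, when each member had equal weight, and to 0.080 with summed CPM. The makeup of the pro-survival sum changed as well as its size. MCL1 made up 48.6, 49.8 and 52.0% of it in siCtrl and 27.3, 25.6 and 27.2% in siDDX17. The share of BCL2L1 was 45.9 ± 0.945% in siCtrl and 70.1 ± 1.17% in siDDX17.

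**Figure D4:**
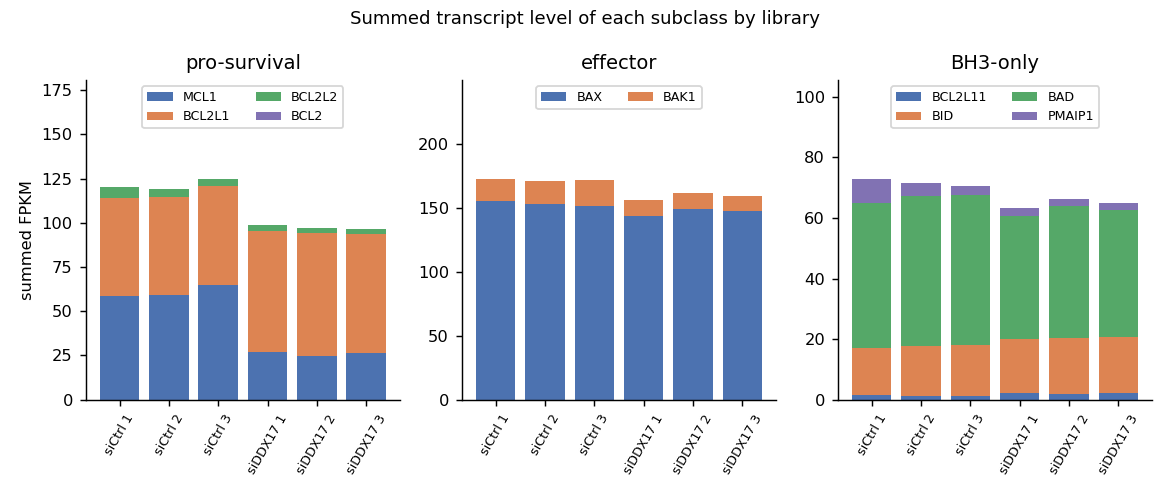
Summed FPKM of each subclass in every library, as stacked bars that start at 0 and are divided by member (each panel has its own scale). The MCL1 segment is smaller in every siDDX17 library, the BCL2L1 segment is larger, and BAX makes up most of the effector sum throughout.

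Ratios between known binding partners moved by different amounts. MCL1 over BCL2L1 was 1.09 ± 0.0592 in siCtrl and 0.381 ± 0.0197 in siDDX17 (FPKM ratio, SD, n = 3). MCL1 over BAK1, its effector partner, was 3.37 ± 0.0961 in siCtrl and 2.06 ± 0.131 in siDDX17. BCL2L1 over BAX moved from 0.363 ± 0.00496 to 0.467 ± 0.0105. BIM gained on both main pro-survival members: MCL1 over BCL2L11 was 47.1 ± 3.75 in siCtrl and 11.9 ± 0.437 in siDDX17, and BCL2L1 over BCL2L11 was 43.1 ± 3.33 and 31.4 ± 2.74. MCL1 over PMAIP1 overlapped between the groups, at 7.37, 13.8 and 21.1 in siCtrl and 10.8, 9.98 and 11.2 in siDDX17. BCL2L11 over PMAIP1 was 0.171, 0.275 and 0.438 in siCtrl and 0.904, 0.807 and 0.974 in siDDX17, so BIM neared the level of NOXA.

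Of 68 other genes of the pathway in 6 lists, 65 were tested. Of these, 27 were called lower and 15 higher, against 24.3% and 24.5% of all tested genes, so that the higher count was near the background share. Their median log2 fold change was -0.13, against 0.0051 over all tested genes. In 11 further BCL2 family genes, 8 were tested, 2 were lower, 3 were higher and 3 did not pass. BMF, a BH3-only protein bound to the cytoskeleton, had the largest change of this list (log2 fold change -0.65, adjusted p = 0.00067), and was at 7.18, 7.87 and 6.70 CPM in siCtrl and 4.31, 5.29 and 4.23 CPM in siDDX17. HRK, another BH3-only gene, was next at 0.59, but was under 1 CPM in every library and did not pass (adjusted p = 0.244). BCL2L13 (0.57) and BOK (0.33), an effector-like protein, were higher, whereas BCL2L12 was lower (-0.34).

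Among 15 genes for proteins that bind BCL2 members, 8 were lower, 2 were higher and 5 did not pass. BNIP2 was the 1 gene past the 2-fold limit. It was at 50.1, 39.5 and 40.0 CPM in siCtrl and 12.1, 11.0 and 11.8 CPM in siDDX17, a log2 fold change of -1.89 (adjusted p = 8.35e-09). The mitophagy receptor BNIP3 was lower (-0.69) and the autophagy protein BECN1 higher (0.51).

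Among 11 genes acting after the membrane opens, 4 were lower, 2 were higher and 5 did not pass. CASP9, the initiator caspase that the apoptosome activates, fell from 14.9, 12.9 and 14.5 CPM in siCtrl to 4.83, 4.66 and 3.97 CPM in siDDX17 (log2 fold change -1.65, adjusted p = 5.51e-08). The inhibitor of apoptosis BIRC3 was also lower (-1.06, adjusted p = 9.72e-07), and without siCtrl 1 its value was -0.96. CYCS, which codes for cytochrome c, was higher (0.40), while APAF1, which forms the apoptosome, did not pass the test (0.13).

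**Figure D5:**
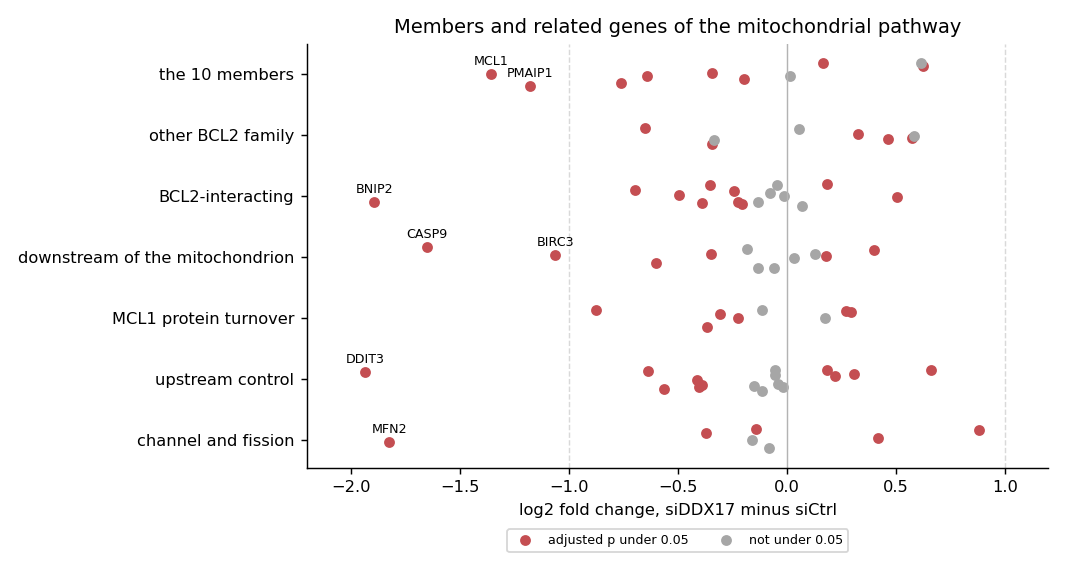
Log2 fold change, siDDX17 minus siCtrl, of the 10 members and of the tested genes in 6 related lists, each point 1 gene, red where the adjusted p was under 0.05. Dashed lines mark log2 fold changes of -1 and 1, and the 7 named points lie below -1, from DDIT3 at -1.93 to BIRC3 at -1.06.

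Genes that control the MCL1 protein were mixed, with 4 of 8 lower, 2 higher and 2 not called. CDC20, which directs the anaphase-promoting complex, had the largest change (log2 fold change -0.88, adjusted p = 8.79e-08), followed by the mitochondrial ubiquitin ligase MARCH5 (-0.37, adjusted p = 0.00149). USP9X, which removes ubiquitin from MCL1, was higher (0.29). Of 16 upstream genes, 6 were lower, 4 were higher and 6 did not pass. AKT1, which phosphorylates BAD, was higher (0.66), while AKT2 did not pass the test (-0.056). The 14-3-3 gene YWHAZ was lower (-0.64), while YWHAB, another 14-3-3 gene, did not pass (-0.041).

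Of 7 genes for outer membrane channels and mitochondrial fission or fusion, 3 were lower, 2 were higher and 2 did not pass. Without siCtrl 1 the count of lower genes was 5. Without that library it also rose to 8 for the upstream genes and to 5 for the genes acting after the membrane opens. It was unchanged in the other lists, and the share of all genes called without siCtrl 1 was not counted. The 2 mitofusins moved in opposite directions. MFN2 was at 72.1, 72.1 and 72.1 CPM in siCtrl and 21.8, 19.9 and 19.4 CPM in siDDX17 (log2 fold change -1.82, adjusted p = 3.51e-10). MFN1 was at 11.3, 10.3 and 9.53 CPM in siCtrl and 20.8, 16.8 and 19.8 CPM in siDDX17 (0.88, adjusted p = 8.69e-06).

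Reads of some members could be mixed with those of other genes, since the use of strand in counting is not stated. BCL2L11 lies opposite MIR4435-2HG, which had 1662 to 2423 counts, and BAD overlaps GPR137 on the opposite strand, with 617 to 867 counts. BCL2L2-PABPN1 itself had a log2 fold change of -0.08 and PABPN1 of -0.03, and neither passed the test (adjusted p = 0.591 and 0.664). The BAK1 pseudogene BAK1P1 had 0 to 2 counts. Counts per gene do not separate isoforms. MCL1, BCL2L1 and BCL2L11 have isoforms of different activity, so these values say nothing of their ratio.

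Since both groups received siRNAs, matches to bases 2 to 8 of either strand (the seed) were sought in the 3′ UTRs of the canonical transcripts of GENCODE release 44. For the DDX17 siRNA, the antisense seed match TATTGCT occurred in 14.5% of 12986 tested genes with a UTR of at least 30 bases, and in 1 member, PMAIP1. The sense seed match, ATGGGTG, occurred in 10.5% of these genes and in 4 members. The matches to the control siRNA, TCGGAGA and TGTCACG, were present in 2.13% and 3.07% of these genes and in 0 members. The member sites are shown on GRCh38 with the match in capitals, because they include the downregulated MCL1, BCL2L2 and PMAIP1 as well as the upregulated BCL2L11.
PMAIP1, 3′ UTR base 589 of 1552, chr18:59903332-59903358, plus strand: actcaaattgTATTGCTtctgttcaga
MCL1, 3′ UTR base 1725 of 2817, chr1:150575634-150575660, minus strand: tggtaataccATGGGTGctgtgacact
BCL2L2, 3′ UTR base 93 of 2786, chr14:23309048-23309074, plus strand: gagttggtggATGGGTGggcatggaac
BCL2L2, 3′ UTR base 826 of 2786, chr14:23309781-23309807, plus strand: ttgagcctggATGGGTGgaggcttagg
BCL2L2, 3′ UTR base 1073 of 2786, chr14:23310028-23310054, plus strand: tctgaatcccATGGGTGtgagggtgat
BCL2L2, 3′ UTR base 1222 of 2786, chr14:23310177-23310203, plus strand: cactgtttgcATGGGTGttacttgtct
BCL2L11, 3′ UTR base 3389 of 4213, chr2:111167610-111167636, plus strand: ggacaagtgaATGGGTGggacaggtgg
PMAIP1, 3′ UTR base 117 of 1552, chr18:59902860-59902886, plus strand: aggtgcattcATGGGTGcccttggaaa
BCL2L2 held 4 sites and PMAIP1 1 of each kind. Over all genes, the median log2 fold change was -0.0049 with an ATGGGTG match, 0.0035 with at least 2 (163 genes) and -0.0043 without one. The median UTR was 3224 bases long with an ATGGGTG match and 1166 without one. For TATTGCT the median log2 fold change was -0.027 with a match, -0.032 with at least 2 (310 genes) and -6.2e-05 without one. There the median UTR was 3225.5 bases long with a match and 1088 without one. For the control siRNA, genes with a TCGGAGA match had a median of 0.23 (277 genes) against -0.0087 without one, and the 7 genes with at least 2 matches had a median of 0.95. For TGTCACG the medians were 0.029 (399 genes) and -0.0051. The median UTR was also longer with a match for each control seed (2778 and 2815 bases, against 1287 and 1278), and the part of either siRNA in the fold changes was not tested. These matches are a description of the sequence, and binding was not measured.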

How the data were processed

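Stranded polyadenylated RNA libraries (3 siCtrl and 3 siDDX17, described by the study as biological replicates) were compared. Reads had been trimmed and aligned to GRCh38 (TopHat2) by the authors, who deposited raw counts of uniquely aligned reads for 29476 genes. The deposited FPKM values, for 29242 genes, had been normalized by the authors for length and library size. Their processing notes also name bcl2fastq and edgeR. The counting program, annotation version and use of strand are not given in the sources used here.

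The counts were tested with edgeR 4.0.16 in R 4.3.3 (TMM scaling, filterByExpr, glmQLFit and glmQLFTest, Benjamini-Hochberg adjustment over 15615 genes). CPM are TMM scaled. FPKM served for levels between genes and for subclass sums. Alternatives were RLE, upper quartile and library size scaling, DESeq2 1.42.0, the exact test of edgeR, no filter, at least 10 counts in every library, a replicate block, limma 3.58.1 on log2(FPKM + 1) and log2(FPKM + 0.1), other call limits, and each library left out. In simulated counts of 15615 genes for siDDX17 against siCtrl, 100 of 100 genes changed by 2-fold, 92 of 100 changed by 1.5-fold and 7 of 15415 unchanged genes were called. The changed genes were drawn from genes with more reads than BCL2. Every gene had the same dispersion, and no outlying library was simulated. These rates therefore do not carry over to BCL2, or to PMAIP1 with its wide spread in siCtrl.

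The members and gene lists were chosen with earlier results of these data known. The named genes were the members, DDX17, overlapping genes, list genes past an adjusted p of 0.05 and an absolute log2 fold change of 1, and in lists without such a gene those with the 2 largest changes. Other list genes (BBC3, ATF4, BCL2L13, BOK, BCL2L12, BNIP3, BECN1, CYCS, APAF1, USP9X, AKT1, AKT2, YWHAZ, YWHAB and MFN1) were named after seeing their values. A few further genes of these pathways are not reported here and stand in no list or count, whereas the counts include every other list gene, named or not. The depth of 30658136 to 39182371 reads leaves the least precision for BCL2, with 3 to 14 counts. Locations and sequences are from GENCODE release 44 on GRCh38 and were read with Python 3.11.15. Splicing was not analysed here.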

Additional observations from a re-analysis of the deposited data

How the results depend on the processing

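The count of downregulated members, 6, was 4 to 6 under the alternative scalings, tests, filters and units and 6 to 6 with each library left out, but 2 with an absolute log2 fold change over 1. The count of upregulated members, 2, was 2 to 3 under the alternative scalings, tests, filters and units (3 with limma on log2(FPKM + 1), which added BID), 0 with that limit, 1 with p under 0.01 and a fold change of 1.5, and 1 to 2 with each library left out (1 without siDDX17 1 or siDDX17 2, where BCL2L1 was lost). With the 2-fold limit and without siCtrl 1, which was chosen after seeing the data, 1 member was lower. BID changed sign, to -0.039, without siCtrl 1, and was between -0.039 and 0.038 with each library left out (adjusted p = 0.0426 with limma on log2(FPKM + 1)). BAX was lost with library size only and in both FPKM fits (adjusted p = 0.228 to 0.371), and PMAIP1 on log2(FPKM + 0.1) (adjusted p = 0.0518). BCL2 had no value with at least 10 counts in every library. The log2 pro-survival over effector balance was -0.048 with equal weight of members, -0.31 with summed CPM and 0.35 without MCL1. The pro-survival over BH3-only balance was -0.26, -0.39 and 0.38 under the same settings. In both equal-weight values BCL2, at 0.01 to 0.05 FPKM and so below the added 0.1, counted as much as MCL1. These values were not computed without BCL2. The BH3-only over effector balance was 0.22 with equal weight and 0.080 with summed CPM. No balance changed sign with a library left out. The cause of these differences was not tested beyond the settings themselves.

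With the replicate number as a block, the counts were 6 lower and 2 higher, the same calls for every member, and PMAIP1 had a log2 fold change of -1.10. Libraries with the same number correlated at 0.0070, 0.041 and -0.056 after removal of the group means, and not every library correlated best with its own number, so the numbers were not taken as pairs. With 3 libraries per group, an exact permutation test of a single value cannot give a p below 0.1.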
